A study of Rattus norvegicus with 8 samples.

Results

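Adipose-derived mesenchymal stem cells (ASCs) of PVG rats were compared with those of LEW rats in culture without stimulation, to find in which genes the cells of the strains differed at baseline. The 4 control arrays of the series were used, 2 for PVG and 2 for LEW, out of 8 arrays in all, and the 4 arrays of cells given LPS served for the estimate of the spread and as a further comparison. PVG (Piebald Virol Glaxo) and LEW (Lewis/Jms) are inbred strains of Rattus norvegicus. The tested cells were PVG ASCs kept with PBS for 24 h or for 48 h, and they were set against LEW ASCs kept with PBS for the same times. The labels give the rats an age of 8 weeks, and the methods give a wider range of ages for the isolation of ASCs. Each array held the pooled RNA of ASCs from 3 rats, and each rat's cells had been divided among the 24 h control, 48 h control, 24 h LPS and 48 h LPS cultures, with LPS at 1 µg/ml. The methods describe isolation from inguinal and interscapular fat, in a passage that names only Lewis rats. PVG rats are listed there from Kyoto, Japan, and LEW rats from Taipei, Taiwan. The strain thus cannot be told apart from the supplier, nor from the fat depot or the preparation if these differed. Since each strain had 1 array per time and the rats were pooled, a p-value here measures how unevenly the differences between the groups came out at 24 h and at 48 h, not how far rats differ. Probes were taken into the comparison where the detection p was under 0.05 on both arrays of PVG or on both arrays of LEW. This held for 9106 of 22523 probes, of which 6835 carried a gene symbol and covered 6710 genes.

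ASCs are the plastic-adherent stromal cells of fat. They can be turned into adipocytes, bone or cartilage cells in culture, they lay down collagen-rich matrix, and they release chemokines, growth factors and prostanoids that act on immune cells. Cultured stromal cells can also take on traits of myofibroblasts, in which transforming growth factor beta and serum response factor, a transcription factor that binds CArG boxes together with actin-sensing cofactors, drive genes of contractile filaments. The strains carry different haplotypes of the rat MHC (RT1c in PVG and RT1l in LEW), so for the RT1 genes, many of which are near-identical copies of each other, a sequence variant under the probe and a difference in expression cannot be told apart.

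Differences are given on the log2 scale as PVG minus LEW, with the standard error (SE) from a limma fit in which the time was a block, and signals are linear intensities scaled to a common 75th percentile. Calls were made at an adjusted p under 0.05, with Benjamini-Hochberg adjustment over the 9106 probes. By this rule 1225 probes were called (13.5%), 635 of them higher (6.97%) and 590 lower (6.48%) in PVG ASCs. The same fit called 982 of the 6710 genes by their brightest probe (14.6%), 512 higher (7.63%) and 470 lower (7%). The counts of gene lists below are to be read against these shares, and the lists were chosen with earlier results of these data known. Most of the called differences were small, with a median size of 0.69 on the log2 scale, against 0.16 over the probes tested, and 321 probes differed by at least 2-fold, 61 by at least 4-fold and 12 by at least 8-fold. All 1225 called probes moved the same way at 24 h and at 48 h, against 65.7% of the probes tested. A small p in this fit largely requires such agreement, so it is no separate support for the calls. On 1202 of the called probes the PVG arrays did not overlap with the LEW arrays, which held for 47.5% of the probes tested. With 1 array per strain and no test, 1009 probes differed by at least 1.5-fold at 24 h (11.1%), 555 higher and 454 lower, and 994 at 48 h (10.9%), 448 higher and 546 lower. At both times 607 probes did so (6.67%), 605 of them in 1 direction. The count of calls was 609 to 652 when any 1 of the 4 control arrays was left out, and 396 of the 1225 probes were called in each of the 8 fits that left out 1 array of the series. Without the time as a block 668 probes were called.

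**Figure D1:**
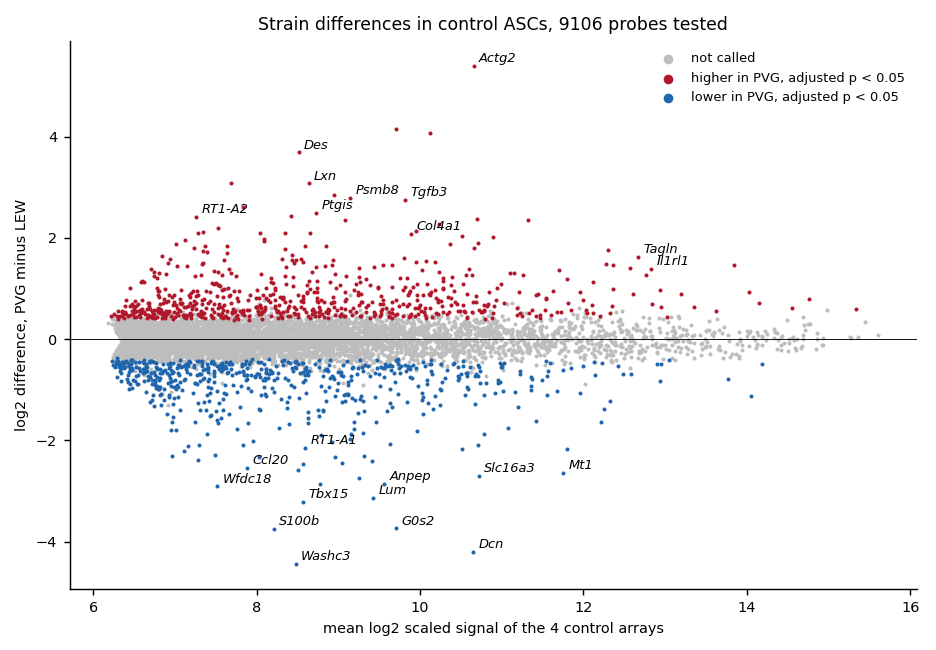
Log2 difference between PVG and LEW ASCs (vertical axis) against mean log2 signal over the 4 control arrays (horizontal axis), 1 point per probe tested. Called probes are coloured by direction, and they lie on both sides of 0 in similar number, 635 above it and 590 below it.

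The label of the cells was checked against markers. Thy1, a surface glycoprotein of MSCs, had signals of 1386 and 2006 in PVG ASCs (24 h and 48 h, an order kept throughout), against 1783 and 2499 in LEW ASCs, and was not called (adjusted p = 0.251). Detection on all 4 arrays was reached by 15 of the 17 MSC and fibroblast markers on the array. Of the 16 tested, 4 were called higher and 1 lower in PVG (31.2%, against 14.6% of all genes). Among the higher ones was Nt5e, the ectonucleotidase CD73 (1199 and 857 in PVG, 625 and 406 in LEW). The receptor Pdgfra was lower by 1.19 on the log2 scale. Without the PVG control 24 h array 3 of these 5 calls remained, and Nt5e was not called without that array or the LEW control 48 h array (adjusted p up to 0.132). By contrast, Ptprc, the leukocyte gene of CD45, Cdh5 of endothelium, Adipoq of mature adipocytes, Myod1 of skeletal muscle, Sox10 of Schwann cells and Rgs5 of pericytes were undetected on all 4. The whole leukocyte list had 13 of 20 genes undetected on every control array and a summed signal of 1604 and 1747 in PVG, against 1501 and 1465 in LEW. Of its 2 tested genes, Lcp1, which encodes the actin-bundling protein plastin of leukocytes, was called higher with 289 and 295 in PVG and 125 and 108 in LEW (log2 difference 1.33, called in each fit with 1 array left out), and both were higher at an unadjusted p under 0.05. The part of leukocytes in the results was not tested. The endothelial list had 10 of 15 undetected and sums of 1057 and 1193, against 1154 and 1135. In bulk RNA a smaller number of cells of a type and less RNA per cell cannot be told apart.

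The largest difference towards PVG was that of Actg2, which encodes the gamma actin of visceral smooth muscle. Its signal was 8683 and 12688 in PVG ASCs, against 324 and 189.8 in LEW ASCs, a 42.4-fold difference (log2 difference 5.40 ± 0.34 SE, adjusted p = 6.37e-06). Des, the gene of the muscle intermediate filament desmin, had 1663 and 1040.2, against 104 and 99.6 (log2 difference 3.69 ± 0.15 SE, adjusted p = 4.89e-07). For both genes the lower PVG array lay far above the higher LEW array. Lxn, the gene of the carboxypeptidase inhibitor latexin, gave 1298 and 1033 in PVG and 160.1 and 117 in LEW, an 8.45-fold difference. Ckb, the brain-type creatine kinase that buffers ATP, gave 1333 and 1319.6 in PVG and 213 and 158 in LEW, and Gng11, a G protein gamma subunit, gave 1149.9 and 1308 in PVG and 195 and 295 in LEW. The endothelial and stromal membrane protein gene Tmem204 was 5.37-fold higher and the serine protease-like gene Prss35 4.83-fold higher. Fam111a, the gene of a nuclear protease that restricts viral replication, was 4.59-fold higher, with 1 of the 2 LEW arrays undetected.

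The largest difference towards LEW was that of Washc3, a subunit of the WASH complex that builds actin on endosomes. Its probe had 72.8 and 80.7 in PVG ASCs, undetected on both arrays, against 1426 and 1925 in LEW ASCs. The signal of this probe in PVG was thus at least 20.4-fold lower (log2 difference -4.43 ± 0.13 SE, adjusted p = 9.41e-08 by limma). A sequence variant under the probe was not tested. G0s2, the gene of an inhibitor of the triglyceride lipase ATGL, had 230.3 and 226 in PVG and 3477 and 2664 in LEW, a 13.3-fold difference. The arrays of the strains were again far apart for both genes, with the PVG arrays close to the background for Washc3. Wfdc18, of the whey acidic protein family, was undetected in PVG and at least 6.2-fold lower there, and Cpxm2, a carboxypeptidase-like matrix protein, was 5.98-fold lower with 109.6 and 201 in PVG and 657 and 1201 in LEW. Slc16a3, which encodes the lactate exporter MCT4, had 810.4 and 541 in PVG and 6363 and 2901 in LEW. Anpep, the surface aminopeptidase CD13, was 7.23-fold lower and the matricellular gene Thbs2 6.67-fold lower. Of the 15 named genes with the largest difference in each direction, 29 of 30 were called in each of the 8 fits with 1 array left out, the exception being Acta1.

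**Figure D2:**
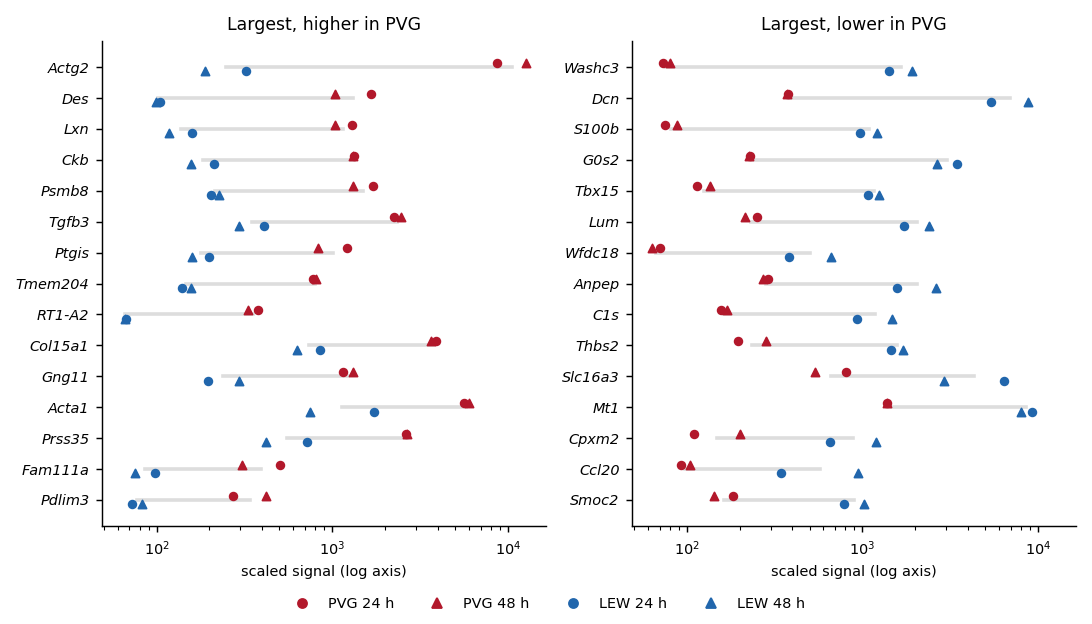
Scaled signal on a log axis of the 15 genes with the largest difference in each direction, with PVG arrays in red and LEW arrays in blue and 1 point per array at 24 h and 48 h. In each gene the points of the strains are apart, as for Actg2 with 8683 and 12688 in PVG, against 324 and 189.8 in LEW.

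Genes of contractile filaments and their anchoring, listed with earlier results of these data known, were mostly higher in PVG ASCs. Their count is thus a description and no separate support. Of 30 tested genes of this kind, 25 were higher and none lower by limma, where 7.63% of all genes were called higher, and their median log2 difference was 1.02, against -0.00 over all genes tested. At an unadjusted p under 0.05 there were 26 higher and 1 lower. Actg2, Des, Fhl1 and Fhl2 were also named by the study from these samples. Among actin-binding members, Tagln, which encodes the calponin-related protein SM22, had 12352 and 10633 in PVG and 4240.5 and 3259 in LEW (log2 difference 1.62 ± 0.18 SE, adjusted p = 0.000179). Myl9, the regulatory light chain of smooth muscle myosin, had 2537 and 3457 in PVG and 787 and 668 in LEW (adjusted p = 0.00105, and 0.0523 when the PVG control 48 h array was left out). Myh10, a heavy chain of nonmuscle myosin, had 3801 and 3819 in PVG and 1539.5 and 1646 in LEW. The 3 genes had no overlap between strains and differed by 1.26 to 2.03 on the log2 scale. Of the PDZ-LIM proteins, which tie enzymes to actin bundles, Pdlim3 was undetected in LEW and at least 4.07-fold higher in PVG, Pdlim5 had 808 and 937 in PVG and 242 and 245 in LEW, and Pdlim7 was 2.8-fold higher. The LIM-only genes Fhl1 and Fhl2 differed by 1.22 and 1.21. Acta1, the actin gene of skeletal muscle, had 5609 and 6016 in PVG and 1729 and 747 in LEW (log2 difference 2.35, adjusted p = 0.00466), and was not called without either PVG control array (adjusted p up to 0.116). Cytoplasmic actin moved less: of 3 probes of Actb the brightest had a difference of 0.33 (adjusted p = 0.153), while the others had 0.60 (adjusted p = 0.0314) and 0.80 (adjusted p = 0.0144). The contractile count was 16 when the 48 h control array of either strain was left out.

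The pericyte and smooth muscle markers overlap with the contractile list, which holds Des, Tagln and each of their other genes called higher except Cspg4. They thus repeat part of the contractile result and are no separate support for it. Their summed signal was 16063 and 13708 in PVG, against 7068.5 and 7004 in LEW. Of 7 tested genes 5 were higher and 1 lower (85.7%, against 14.6% of all genes), and the part of such cells in the contractile difference was not tested. Outside the contractile list, Cspg4, the NG2 proteoglycan of pericytes, was higher (219 and 196 in PVG, 123 and 94.2 in LEW) and Anpep was lower. The defining markers Rgs5 and Notch3 were undetected on all 4 arrays. Among skeletal muscle markers 11 of 19 were undetected, and Des was the 1 called gene of 4 tested.

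**Figure D3:**
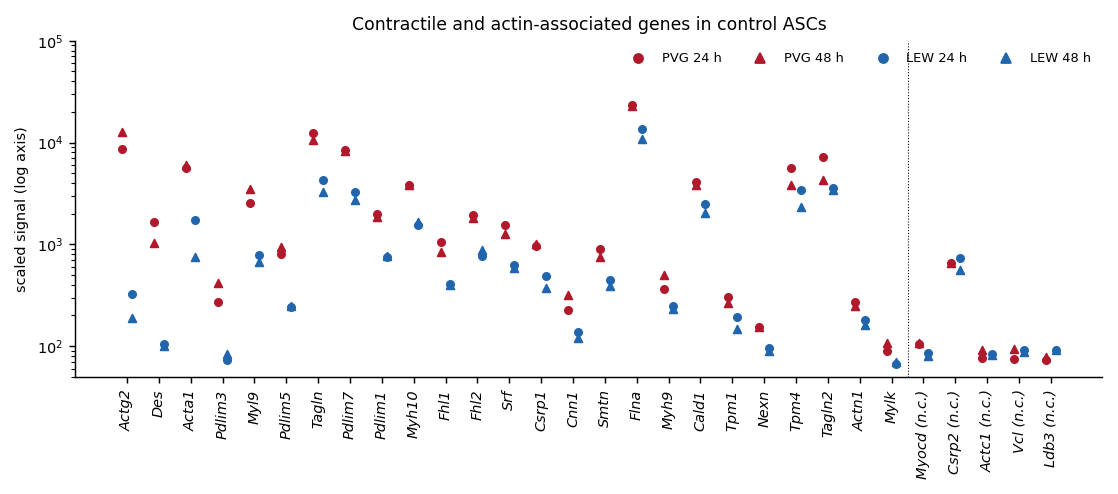
Scaled signal on a log axis of the 30 tested contractile genes in PVG (red) and LEW (blue) control ASCs, 1 point per array. The 25 called genes are each higher in PVG, and the 5 genes marked n.c., right of the dotted line, were not called.

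The gene of serum response factor, Srf, was 1 of the 25 contractile genes called higher, and promoters were searched for the CArG box that this factor binds. Srf had 1558 and 1249 in PVG and 627 and 585 in LEW (log2 difference 1.20 ± 0.12 SE, adjusted p = 7.64e-05). The promoter windows of Srf, Fhl2 and Acta1 are shown as called contractile genes that hold a CArG box, from 250 bases before to 50 bases after the transcription start in RefSeq on GRCr8. Srf lies at chr9:21923826-21924125 (plus strand), Fhl2 at chr9:52954491-52954790 (minus strand) and Acta1 at chr19:68784145-68784444 (minus strand). Capitals mark the CArG box, of which Srf has 2.
Srf: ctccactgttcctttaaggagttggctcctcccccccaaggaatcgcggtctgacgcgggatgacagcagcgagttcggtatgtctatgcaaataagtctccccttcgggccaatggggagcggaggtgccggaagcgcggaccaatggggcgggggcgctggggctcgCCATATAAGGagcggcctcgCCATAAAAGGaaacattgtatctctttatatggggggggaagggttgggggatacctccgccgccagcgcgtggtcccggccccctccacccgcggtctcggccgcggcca
Fhl2: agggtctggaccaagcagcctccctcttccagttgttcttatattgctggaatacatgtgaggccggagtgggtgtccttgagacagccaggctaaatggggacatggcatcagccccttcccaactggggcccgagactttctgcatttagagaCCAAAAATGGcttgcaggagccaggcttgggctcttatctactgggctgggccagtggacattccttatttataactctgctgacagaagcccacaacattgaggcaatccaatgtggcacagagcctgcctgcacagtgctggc
Acta1: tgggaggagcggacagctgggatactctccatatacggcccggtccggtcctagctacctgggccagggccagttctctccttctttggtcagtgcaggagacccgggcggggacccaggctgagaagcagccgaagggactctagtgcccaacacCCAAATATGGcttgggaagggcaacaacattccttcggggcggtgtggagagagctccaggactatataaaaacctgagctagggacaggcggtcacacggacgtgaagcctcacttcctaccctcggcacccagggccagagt
A CArG box on either strand was present in 6 of the 26 contractile genes whose promoter matched (23.1%). The others were Fhl1, which was called, and Ldb3 and Actc1, which were not. The windows of Actg2 and Des held none. Over the array, it was present in 15 of 424 promoters of genes higher in PVG (3.54%), in 1 of 372 of genes lower in PVG (0.269%), in 52 of 4853 of genes tested but not called (1.07%) and in 451 of 27457 promoters of the genome (1.64%). Of the 6710 genes tested 5649 had a promoter in the table. These shares are a description, and a match of letters is not a shown site of binding. The part of serum response factor in the contractile difference was not tested.

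The 3 TGF-beta genes were called higher in PVG ASCs, while Grem1, Nbl1 and Chrd, which encode some of the BMP antagonists, were lower. Tgfb3 had 2233 and 2474 in PVG, against 409 and 296 in LEW (log2 difference 2.76 ± 0.19 SE, adjusted p = 1.25e-05). Tgfb2 had 3357 and 2762 in PVG, against 1098 and 686 in LEW, and Tgfb1 had 951 and 752, against 325 and 388. The PVG arrays were above the LEW arrays for each ligand, by 6.75-fold, 3.51-fold and 2.38-fold in this order. Fstl3 and Fst, which encode binders of activin, were also higher, by 1.58 and 1.29 on the log2 scale. Grem1 was lower with 749 and 638 in PVG, against 3362 and 2835 in LEW (log2 difference -2.16 ± 0.18 SE, adjusted p = 3.16e-05), and Nbl1 and Chrd were lower by 1.20 and 0.94. Smad4, the shared SMAD of both branches, had 781 and 637 in PVG and 1516 and 1605 in LEW. The type I receptor gene Tgfbr1 (99.8 and 108 in PVG, 90.4 and 95.9 in LEW) was not called. Tgfbi, the TGF-beta-induced gene, was called lower in PVG (log2 difference -1.16). So was the receptor gene Tgfbr3 (-0.47), but its call was lost when any control array was left out. In all, 7 of 36 tested genes of the TGF-beta and BMP list were higher and 6 lower, with a median difference of 0.15, and 10 of these 13 calls held in each fit with 1 array left out.

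Matrix genes went both ways. Of 30 fibrillar matrix genes 7 were higher and 10 lower, with a median of -0.30. With the PVG control 24 h array left out, the counts were 4 and 6. Col1a2 had 39933 and 46100.0 in PVG and 43104 and 40139 in LEW (difference 0.04, adjusted p = 0.881). Among small leucine-rich proteoglycans, which bind collagen fibrils and set their spacing, members moved in opposite directions. Dcn, the decorin gene, had 377 and 373 in PVG, against 5396 and 8774 in LEW (log2 difference -4.20 ± 0.25 SE, adjusted p = 5.14e-06). Lum, the lumican gene, had 251 and 213 in PVG, against 1727 and 2405 in LEW, and Aspn, the asporin gene, was 3.44-fold lower, whereas Prelp had 1036 and 732 in PVG, against 403 and 417 in LEW. Cthrc1, a secreted collagen regulator, was 4.93-fold lower, and Col14a1, a collagen that coats fibrils, was 3.12-fold lower. Col3a1, the collagen of fine reticular fibres, was 2.42-fold higher with 9683 and 12202 in PVG and 5026 and 4012 in LEW, and Mgp, which inhibits calcification of matrix, was 3.73-fold higher.

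Of 6 basement membrane genes tested, 3 were called higher in PVG and none lower by limma (50%, against 14.6% of all genes), and none was lower at an unadjusted p under 0.05. Col4a1, a chain of the sheet-forming collagen IV, had 1987 and 1926 in PVG, against 480.2 and 446 in LEW (log2 difference 2.08 ± 0.14 SE, adjusted p = 9.66e-06). Col15a1, a collagen at the border of basement membrane and stroma, had 3895 and 3666, against 857 and 627. Both collagens stood about equally high at 24 h and 48 h. The remaining call, of the laminin gene Lamc1 (log2 difference 0.44), was lost without the time as a block and when any control array was left out. Among matrix proteases 1 of 13 was higher and 4 were lower, and of these 5 calls 3 remained without the time as a block or with 1 control array left out, except for the 48 h array of PVG, where 2 did. The aggrecanase gene Adamts5 had 126 and 122 in PVG and 443 and 564 in LEW, and Mmp12, the macrophage elastase, was undetected in LEW and at least 1.98-fold higher in PVG. Smoc2, a calcium-binding matrix protein, was 5.52-fold lower.

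Of 9 tested cathepsins and cystatins, which are lysosomal proteases and their inhibitors, 5 were called lower in PVG ASCs and none higher (7% of all genes were lower). None was higher at an unadjusted p under 0.05 either, and all 9 lay below 0, with a median of -0.71. Ctsl had 12298 and 10802 in PVG, against 22967 and 27083 in LEW, Ctsk, the collagen-degrading cathepsin of osteoclasts, had 1622 and 1298, against 2567 and 3377, and Ctsd had 175 and 221, against 387 and 374. Cst6, an inhibitor of cysteine proteases, was lower by 0.93. The cathepsin count was 4 without the time as a block, 3 with scaling to a common median and 8 with no detection filter. Not all 5 calls held when either LEW control array or the PVG control 48 h array was left out.

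Of 14 complement genes 7 were lower in PVG and none higher (50%, against 14.6% of all genes), with a median of -0.47. At an unadjusted p under 0.05 in limma there were 1 higher and 7 lower. The classical pathway proteases went together: C1s had 156 and 170.5 in PVG, against 937 and 1484 in LEW (log2 difference -2.85 ± 0.31 SE, adjusted p = 0.000168), C1r had 1234 and 1769, against 2952 and 4684, and C2 had 827 and 1679.6, against 3077 and 5073. For all 3, the 48 h array of each strain was above its 24 h array. Cd55, which protects the cell surface from complement, had 472 and 320.4 in PVG and 1019 and 1064 in LEW. Without the PVG control 48 h array or the LEW control 24 h array the count was 4, and without the time as a block it was 2.

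Of 11 chemokine genes tested at baseline, 4 were called lower and 1 higher in PVG ASCs (45.5%, against 14.6% of all genes). Their median was -0.53, and 18 of 31 with a probe were undetected on all 4 arrays. The higher one was Cxcl16, an attractant of T cells, with 237 and 198 in PVG and 127 and 138 in LEW (log2 difference 0.71, adjusted p = 0.0209), and it was not called without any 1 of the 4 control arrays. With either PVG control array or the LEW control 24 h array left out 3 of the 5 calls remained, those of Ccl2, Ccl7 and Ccl20. Ccl2, the monocyte attractant MCP-1, had 868 and 757 in PVG, against 3721 and 3243 in LEW (log2 difference -2.10 ± 0.13 SE, adjusted p = 6.37e-06). Its neighbour in function Ccl7 had 1091 and 778, against 3357 and 3375, and Ccl20, which draws cells with CCR6, had 92.3 and 105, against 345 and 942. The 3 chemokines were 3.65-fold to 5.81-fold lower. Of 14 interleukin and receptor genes tested 2 were higher and 2 lower (28.6%, against 14.6% of all genes), with a median of -0.28. At an unadjusted p under 0.05 in limma there were 2 higher and 5 lower. Il15, a growth factor of NK and memory T cells, was 2.37-fold higher in PVG, and Il1rl1, the receptor of IL-33, had 12194 and 11339 in PVG and 4284 and 4682 in LEW. The lower ones were Osmr (log2 difference -1.11) and Il17ra (-0.51), whose calls were lost without the time as a block. In the NF-kB and TLR list, 1 of 17 genes was lower, Irak3, a brake on TLR signalling, with 125 and 131 in PVG and 206 and 248 in LEW.

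Antigen presentation by class I differed gene by gene. Psmb8, the immunoproteasome subunit LMP7 that is encoded in the MHC, had 1702 and 1312 in PVG, against 205 and 227 in LEW (log2 difference 2.79 ± 0.15 SE, adjusted p = 3.06e-06). A partner gene stood near the same level in the strains: Psme2, of the proteasome activator, had 410.0 and 399 in PVG and 367 and 365 in LEW, a difference of 0.14 (adjusted p = 0.597). Of the RT1 heavy chains, RT1-A2 was undetected in LEW and at least 4.27-fold higher in PVG, RT1-A3 had 591 and 766 in PVG and 149 and 167 in LEW, RT1-A1 had 196 and 173 in PVG and 748 and 881 in LEW, and RT1-CE15 was undetected in PVG and at least 2.72-fold lower there. B2m, the light chain shared by class I molecules and outside the MHC, had 4558 and 5138 in PVG and 7310.5 and 8226 in LEW (log2 difference -0.68, adjusted p = 0.00554, and not called without either PVG control array or the LEW control 24 h array, with adjusted p up to 0.0612). In the whole list 6 of 23 genes were higher and 4 lower, with a median of 0.14, and 6 of these 10 calls remained without either PVG control array or without the LEW control 24 h array. None of 3 class II genes was called in limma. At an unadjusted p under 0.05 there were 2, both with less signal in PVG.

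Of 20 interferon-stimulated genes 3 were higher and 2 lower (25%, against 14.6% of all genes), and 18 of 42 with a probe were undetected on all 4 arrays. Of these 5 calls 2 remained without the 24 h control array of either strain, and 3 without that of 48 h or without the time as a block. Oasl2, of the oligoadenylate synthetase family, had 274 and 286 in PVG and 81.4 and 79.7 in LEW, where it was undetected, and was at least 3.36-fold higher. Ifi27l2b had 2723 and 3374 in PVG, against 7431 and 8381 in LEW. Interferon factors bind GAAA repeats, here searched as GAAA, any 2 bases and GAAA, and the promoters of Psmb8 and Oasl2 are shown as the called genes with the largest differences towards PVG that hold this pattern in their lists. They lie at chr20:4656982-4657281 and chr12:47383136-47383435, both on the minus strand of GRCr8 (RefSeq). Capitals mark the repeat, which in both reads as TTTC, 2 bases and TTTC because it lies on the other strand.
Psmb8: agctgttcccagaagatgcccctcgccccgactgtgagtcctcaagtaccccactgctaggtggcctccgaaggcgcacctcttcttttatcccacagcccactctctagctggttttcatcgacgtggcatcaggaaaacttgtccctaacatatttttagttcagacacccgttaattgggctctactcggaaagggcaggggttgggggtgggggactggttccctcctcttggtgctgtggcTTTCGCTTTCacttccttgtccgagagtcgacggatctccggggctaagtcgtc
Oasl2: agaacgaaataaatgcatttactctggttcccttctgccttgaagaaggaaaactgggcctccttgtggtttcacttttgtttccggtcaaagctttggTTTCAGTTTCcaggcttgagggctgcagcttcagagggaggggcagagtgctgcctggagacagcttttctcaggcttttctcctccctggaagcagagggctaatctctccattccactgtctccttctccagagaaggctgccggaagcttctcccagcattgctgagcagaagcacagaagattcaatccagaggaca
The pattern was found on either strand in 9 of 21 class I genes (42.9%) and 9 of 16 interferon-stimulated genes (56.2%) with a matched promoter, against 3.77% of all promoters. Most of these were not called: Tap2, with a match, had 112 and 104 in PVG and 106 and 89.4 in LEW. Among all called genes the share was 2.83% for those higher and 2.15% for those lower, against 2.68% for those not called.

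**Figure D4:**
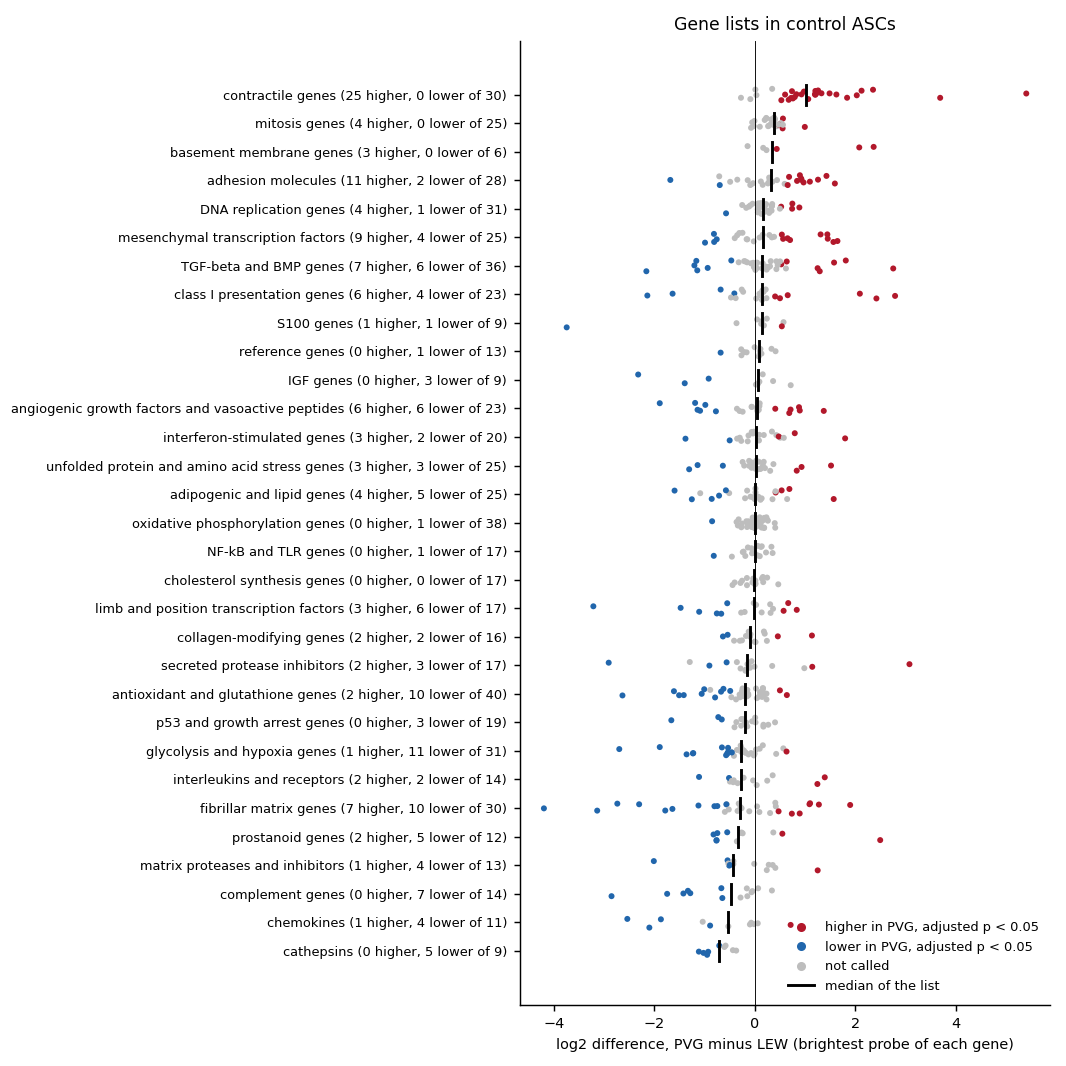
Log2 difference between PVG and LEW ASCs (horizontal axis) of each tested gene of the pathway lists, 1 row per list ordered by its median (black bar), with called genes in red (higher in PVG) or blue (lower in PVG) and others in grey. The contractile list at the top has 25 of 30 genes higher and a median of 1.02, and the cathepsin list at the bottom has 5 of 9 lower and a median of -0.71.

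Transcription factors of body position and of mesenchymal identity differed in both directions. Tbx15, a T-box factor of limb, skin and subcutaneous fat patterning, had 114 and 136 in PVG ASCs, against 1079 and 1243 in LEW ASCs (log2 difference -3.21 ± 0.11 SE, adjusted p = 1.39e-07). The Hox genes, which record position along the body axis, differed in opposite directions by member: Hoxb8 was undetected in PVG and at least 2.46-fold lower there, and Hoxb7 had 372 and 359 in PVG, against 686 and 903 in LEW, while Hoxd10 was undetected in LEW and at least 1.32-fold higher in PVG (not called without the LEW control 48 h array, adjusted p = 0.0563). Meis1, a partner of Hox proteins on DNA, had 182 and 206 in PVG and 104 and 114 in LEW. Of 17 position factors 3 were higher and 6 lower, and 5 of these 9 calls remained without the 48 h control array of either strain. Of 25 mesenchymal and developmental factors 9 were higher and 4 lower. Tcf21, of stromal and visceral fat progenitors, was undetected in LEW and at least 2.44-fold higher in PVG, and so were Alx1, a craniofacial homeobox gene (at least 2.6-fold), and Dlx5, of bone and cartilage (at least 2.11-fold). Gata2 had 331 and 339 in PVG and 119.7 and 107 in LEW. Wt1, the Wilms tumour factor of mesothelium and visceral stroma, had 251 and 217 in PVG, against 92.6 and 79.4 in LEW, of which 1 array was detected. Twist1 and Prrx2, of limb mesenchyme, were lower by 0.81 and 0.99. The mesothelial markers had a summed signal of 4558 and 4332 in PVG, against 6773 and 7010 in LEW. Of 6 tested, Krt7 (739.6 and 393 in PVG, 188 and 101 in LEW) and Wt1 were higher, Pdpn was lower (2747 and 2767 in PVG, 5601 and 5865 in LEW, with adjusted p up to 0.102 without the PVG control 48 h or LEW control 24 h array), and Msln was not called, with 319 and 376 in PVG and 339 and 423 in LEW. The part of such cells in the result for Wt1 was not tested, nor was that of the fat depot in the position genes.

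Of 25 adipogenic and lipid genes 4 were higher and 5 lower, and 5 of these 9 calls remained without the PVG control 24 h array, without the LEW control 48 h array or without the time as a block. Klf5, an early activator of adipogenesis, had 548 and 693 in PVG and 203 and 212 in LEW, and Klf4 had 780.0 and 642 in PVG and 1602 and 1776 in LEW. Pparg, the master regulator of adipocytes, was undetected in LEW and at least 1.36-fold higher in PVG (121 and 106, against 77.1 and 64), and was not called without the LEW control 48 h array (adjusted p = 0.0553). Srebf1, a regulator of fatty acid synthesis, was 1.64-fold lower. S100b, of neural and adipose cells, had 74.9 and 87.7 in PVG, detected on 1 array, against 973 and 1214 in LEW (log2 difference -3.74 ± 0.13 SE, adjusted p = 1.39e-07). It was the 1 called gene of 6 tested Schwann and neural markers.

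Of 31 genes of hypoxia and glycolysis 11 were lower in PVG ASCs and 1 higher (38.7%, against 14.6% of all genes), with a median of -0.28. Beside Slc16a3, Adm, which encodes the vasodilator adrenomedullin, had 277 and 191 in PVG, against 944 and 775 in LEW, and Hif1a, the oxygen-regulated factor, had 329 and 381, against 952 and 719 (adjusted p = 0.0125, and up to 0.151 without the PVG control arrays or the LEW control 24 h array). The glycolytic enzyme gene Ldha was not called, with 7578 and 4696 in PVG and 8354 and 6211 in LEW. The count of 11 was 5 without the PVG control 24 h array, 3 without that of 48 h, 4 without the LEW control 24 h array, and 5 without the time as a block.

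Of 40 antioxidant and detoxifying genes 10 were lower in PVG ASCs and 2 higher (30%, against 14.6% of all genes), with a median of -0.20. Of these 12 calls 8 remained without the time as a block. Some were also lost when a control array was left out, mostly those of smaller differences than the ones named here. Mt1, the metal-binding metallothionein, had 1388 and 1379 in PVG, against 9247 and 7986 in LEW (log2 difference -2.63 ± 0.16 SE, adjusted p = 6.17e-06). Hmox1, which degrades haem, had 1563 and 1562, against 4745 and 4794. Gclc, the limiting enzyme of glutathione synthesis, had 517 and 437, against 1324 and 1214, and the extracellular dismutase Sod3 was 2.01-fold lower. These genes were 2.01-fold to 6.21-fold lower and had no overlap between the strains. Among genes of the unfolded protein response and amino acid stress 3 of 25 were higher and 3 lower (24%, against 14.6% of all genes). Phgdh, the entry enzyme of serine synthesis, was 2.86-fold higher and Asns, the asparagine synthetase, 1.91-fold higher, while Ddit3, the stress factor CHOP, had 685 and 867 in PVG and 1772 and 2052 in LEW. Gadd45a, a growth arrest gene, was 3.16-fold lower.

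Of 28 adhesion genes 11 were higher in PVG and 2 lower (46.4%, against 14.6% of all genes), with a median of 0.32. The count of 11 was 9 without the time as a block or with scaling to a common median. Some of these calls were also lost when a PVG control array or the LEW control 48 h array was left out. Itga1, a collagen-binding integrin chain, had 409.7 and 742 in PVG, against 159 and 209.7 in LEW, Itga5, of the fibronectin receptor, had 753 and 387, against 221 and 182, and their partner Itgb1 had 12485 and 13029, against 7020.1 and 6677. The 3 integrin chains were 3.02-fold, 2.69-fold and 1.86-fold higher in this order. Icam1, a leukocyte ligand, was 1.9-fold higher, and Vcam1 was 1.96-fold higher but its call was lost with the 24 h PVG control array left out (adjusted p = 0.0602). Cd47, the signal that restrains phagocytes, had 144 and 247 in PVG and 437 and 838 in LEW.

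Among prostanoid genes, 2 of 12 were higher and 5 lower. Of these 7 calls 2 remained with the 48 h array of PVG left out, and 3 remained with its 24 h array, the 48 h array of LEW or the time block left out. Ptgis, which makes prostacyclin, had 1209 and 835 in PVG, against 199.7 and 159 in LEW (log2 difference 2.50 ± 0.15 SE, adjusted p = 4.9e-06). Ptgs2, the inducible cyclooxygenase upstream of it, had 245 and 229 in PVG and 342 and 245 in LEW (adjusted p = 0.415), and Ptges, of prostaglandin E synthesis, was undetected in PVG and at least 1.33-fold lower there (adjusted p = 0.00379, and 0.0676 with the 48 h PVG control array left out). Prostanoid genes thus differed in both directions. Of 23 growth factor and vasoactive genes 6 were higher and 6 lower, and of these 12 calls 5 remained with the 48 h array of PVG left out and 7 with the 24 h array of LEW left out. Edn1, the vasoconstrictor endothelin 1, had 1921 and 1462 in PVG and 678 and 617 in LEW, F2r, the thrombin receptor, was 1.86-fold higher, and the receptor Pdgfra was 2.28-fold lower. Igfbp3, the main carrier of insulin-like growth factors, had 216 and 230.3 in PVG and 935 and 1328 in LEW, and Pappa, a protease that frees them, was 2.63-fold lower. Among the genes named above, the calls lost without the time as a block included those of Igfbp3, Pdgfra, C1r, C2, Fst, Mgp, Sod3, Hif1a and Pdpn.

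The summed signal of the mitosis genes was 13010 and 6022 in PVG ASCs and 9399 and 5392 in LEW ASCs. Of 25 mitosis genes 4 were called higher and none lower (16%, near the 14.6% of all genes). At an unadjusted p under 0.05 in limma 11 were higher and none lower. Of the 25, 21 lay above 0, and their median was 0.37, but for no gene were both PVG arrays above or below both LEW arrays. Prc1, a protein of the mitotic spindle midzone, had 919 and 354 in PVG and 427 and 191 in LEW. It was thus higher in PVG at each time, with the 24 h array the higher one in each strain. Of the 4 mitosis calls 1 remained without the PVG control 24 h or LEW control 48 h array, and none without the PVG control 48 h array, the LEW control 24 h array or the time as a block. Of 31 replication genes 4 were higher and 1 lower (16.1%, near the 14.6% of all genes), and for 4 of the 31 the arrays of the strains did not overlap. Of these 5 calls 2 remained without the LEW control 48 h array, 1 without any other control array and none without the time as a block. Lists of housekeeping metabolism lay under the background. Of 38 oxidative phosphorylation genes 1 was lower, though not without either 24 h control array, and none higher (2 higher and 5 lower at an unadjusted p under 0.05). Of 17 cholesterol synthesis genes none was called by limma (none higher and 1 lower at an unadjusted p under 0.05). With every probe of these genes counted, 1 of 18 was called lower. Of 13 reference genes 1 was called lower, though not without either PVG control array or the LEW control 24 h array. With every probe of the reference genes counted, 2 of 15 were called higher and 1 lower. Rplp0, a ribosomal protein, had 48324 and 54587 in PVG and 45898 and 51630.0 in LEW.

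The LPS arrays, from the same rats, gave the same comparison on other arrays, which had entered the control comparison only through the estimate of the spread. In PVG ASCs with LPS against LEW ASCs with LPS, 1153 of 9106 probes were called (12.7%). Of the 1225 probes called at baseline 759 were also called with LPS (62.0%), and 1207 had the same sign (98.5%), against 67.4% of the probes not called at baseline. The count of 759 was 383 to 497 without the LEW control 24 h array, either PVG control array or either PVG LPS array. Actg2 differed by 5.50 with LPS and 5.40 at baseline, Tbx15 by -3.21 and -3.21, Washc3 by -4.17 and -4.43, and Psmb8 by 3.14 and 2.79. The difference itself was tested as the interaction of strain and LPS, which was called for 2 probes (0.022%), with 457 at an unadjusted p under 0.05. For Ccl2, the signal with LPS was 7636 and 8291 in PVG and 8998 and 9810.2 in LEW, a log2 difference of -0.24 (adjusted p = 0.301), against -2.10 without LPS. For Pcp4, the gene of a calmodulin-binding peptide, it was 89.2 and 98.5 in PVG and 334 and 492 in LEW with LPS, a log2 difference of -2.11 (adjusted p = 1.04e-05), against -0.24 (adjusted p = 0.314) without LPS. The levels of Ccl2 in the strains were thus close to each other with LPS and apart without it, and those of Pcp4 the other way round. Ccl7 had a like pattern in its values (-0.26 with LPS and -1.87 without), but its interaction was not called (adjusted p = 0.441).

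**Figure D5:**
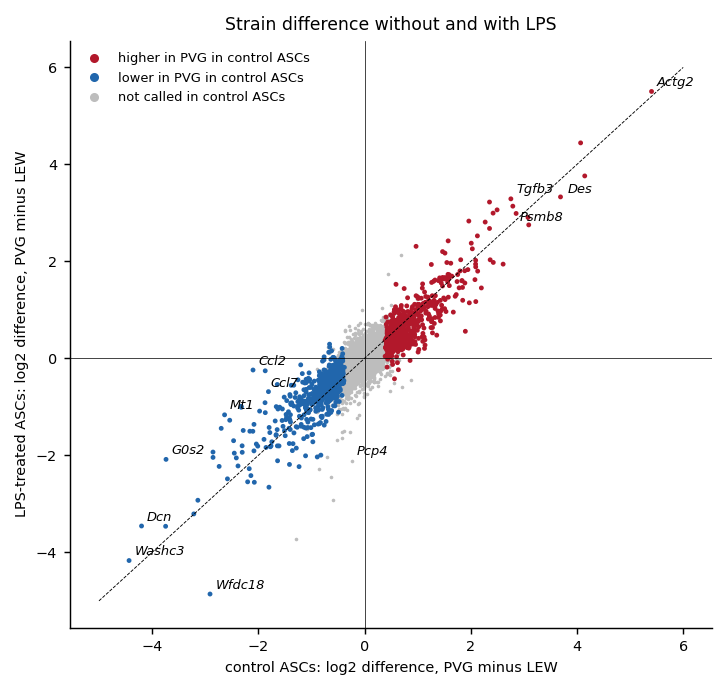
Log2 difference between PVG and LEW ASCs with LPS (vertical axis) against that without LPS (horizontal axis), 1 point per probe tested, with the probes called without LPS coloured. The labelled Ccl2 lies near 0 on the vertical axis (-0.24) and far from it on the horizontal axis (-2.10).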

How the data were processed

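Illumina rat arrays of 4 control and 4 LPS-treated pools of ASCs were used. Per the file headers, the authors deposited a linear signal intensity for each of 22523 probes, without background subtraction or normalization between arrays. Beside each intensity the authors deposited its detection p-value. A second deposited table of normalized intensities, with equal quantiles on all arrays, served as an alternative. The methods name an Illumina reader and GeneSpring GX, and the summarization software is not given in the sources used here. Every array was scaled to the same 75th percentile before log2 values were taken. Folds were computed on scaled signals from which no background was subtracted, so folds of dim probes are understated. Probes detected at p under 0.05 on both control arrays of PVG or of LEW were fitted with limma 3.58.1 in R 4.3.3, over all 8 arrays, with 1 mean per strain and treatment and the time as a block. The pairing by time comes from the labels. The 24 h minus 48 h differences of the PVG control arrays correlated with those of the LEW control arrays (r = 0.384 over 9106 probes). p-values were adjusted by Benjamini-Hochberg. The time and the replicate number are the same label, and cells of the same rats were used at both times.

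Genes were represented by their brightest probe. The comparison, gene lists and named genes were chosen with earlier results of these data known. The genes named were the 15 with the largest difference in each direction, up to 4 per list with the smallest p, defining markers and genes of the study's tables. Other genes, such as Srf, Myl9 and the uncalled members of lists, were named after their values were seen. Where the dimmer strain was undetected on both arrays, the fold is a lower bound, the brighter mean over the mean of the higher of the lowest detected signal and the dim probe's own signal on each array. Promoters came from RefSeq (GRCr8) by gene symbol. The fit was tested on simulated data. Alternatives were other scalings (median, quantile), background corrections (normexp with an offset of 50, neqc with an offset of 16), the authors' normalized intensities, other detection filters, a floor of 64, an intensity trend, no block, the control arrays alone, the same fit without moderation (an analysis of variance, on other probes and contrasts than that of the methods), and fits with each array left out. Python 3.11.15 with matplotlib 3.10.9, numpy 2.4.6 and pandas 2.3.3 made the figures and tables. The number of arrays limits the precision. The study's other experiments were not analysed here.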

Additional observations from a re-analysis of the deposited data

Results flagged for a closer look

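The strain difference of 2 genes changed with LPS by a test of the interaction itself. For Ccl2, PVG minus LEW was -0.24 with LPS and -2.10 without, an interaction of 1.86 on the log2 scale (standard error 0.19, adjusted p = 0.011 from limma over 9106 probes). For Pcp4, it was -2.11 with LPS and -0.24 without, an interaction of -1.87 (standard error 0.20, adjusted p = 0.011). The signal of Pcp4 in PVG control ASCs was undetected on both arrays, so that the size of its difference without LPS depends on the background. With 1 array left out, the interaction of Ccl2 was called in 5 of 8 fits (adjusted p up to 0.304) and that of Pcp4 in 4 of 8 (adjusted p up to 0.371).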

How the results depend on the processing

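Leaving the time point out as a replicate block gave 668 called probes in place of 1225, 400 control calls also called with LPS in place of 759 and 1 interaction in place of 2, with 2 complement and 5 hypoxia genes lower. Scaling to a common median gave 780, 475 and 0, with 4 complement genes, 3 cathepsins and 5 hypoxia genes lower. The same fit without moderation, which differs in its probes and contrasts from the 2-way analysis of variance of the methods, called 6 probes (1793 at an unadjusted p under 0.05), 3 control calls also called with LPS, 0 interactions and 0 genes of each list counted here (contractile, adhesion, complement, cathepsin, hypoxia, antioxidant and both directions of fibrillar matrix). The control arrays alone without a block gave 814 probes and 7 hypoxia genes, and with the block 8 cathepsins, as did no detection filter. The interaction count was 1 with detection on all 4 control arrays or at a detection p under 0.01, 42 with no filter and 5 with an intensity trend. A fold of 2 in place of 1.5 left 235 probes at both times in place of 605. The settings for list counts and for control calls also called with LPS were chosen after seeing the data.

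With 1 array left out, the called probes numbered 609 to 1608, the highest without either LEW LPS array, which changes only the estimate of the spread. Control calls also called with LPS numbered 383 to 889 and interactions 0 to 86. The 86 came with the LEW LPS 24 h array left out and 6 with that of 48 h, against 0 with any of the PVG control 24 h, PVG control 48 h and PVG LPS 48 h arrays left out and 1 with the LEW control 48 h array left out. List counts were 16 to 25 contractile, 8 to 13 adhesion, 4 to 7 complement, 4 to 8 cathepsin, 3 to 12 hypoxia, 7 to 12 antioxidant, 4 to 7 fibrillar genes higher and 6 to 13 lower. For the called genes that are named, 2797 values under alternatives kept the direction, and 172 of them lost the call, 125 without moderation and 47 elsewhere, such as Ctsk, Hif1a and Pdpn with median scaling. Tgfbi, Tgfbr3, Osmr, Il17ra and Lamc1 are not among these values. Uncalled differences near 0 changed sign in places. Col1a2 was -0.17 with quantile normalization, -0.17 with neqc, -0.15 in the authors' table and -0.10 to 0.19 with 1 array left out. Rplp0 was -0.055 with quantile normalization, -0.055 with neqc and -0.055 in the authors' table. The causes were not tested. Signals near the background, pooled rats and 1 array per strain and time limit all values.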

Other observations

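Small heat shock proteins, chosen after their values were seen, went both ways between the strains. Cryab, a chaperone of desmin filaments, had 31604 and 18993 in PVG control ASCs, against 13719 and 5704 in LEW control ASCs (log2 difference 1.47, adjusted p = 0.00778). Hspb7 had 613 and 585 in PVG and 223 and 181 in LEW, and Hspb6 had 1514 and 1205 in PVG and 541 and 439 in LEW. Cryab was not called without either PVG control array or the LEW control 48 h array (adjusted p up to 0.145), nor without the time as a block, nor was Hspb6 with the 48 h PVG control array left out (adjusted p = 0.0599). Hspb8 was lower, with 309 and 332 in PVG and 584 and 736 in LEW. The co-chaperone gene Dnajb4 had 676 and 568 in PVG and 209.9 and 180.0 in LEW.

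Several single genes outside the lists, also chosen after their values were seen, had differences of similar size. Gucy1b1, a subunit of the nitric oxide receptor, had 535 and 539 in PVG and 146 and 133 in LEW. Nes, the intermediate filament nestin of progenitor cells, had 392 and 239.7 in PVG, against 101 and 84.8 in LEW. The gap junction gene Gja1 was lower by 1.22 on the log2 scale. Hsd11b1, which activates glucocorticoids, had 1831 and 1531 in PVG and 5832 and 9743 in LEW, and Rarres2, the chemerin gene, had 323 and 462 in PVG and 1272 and 2079.6 in LEW (adjusted p = 0.00134, 0.0552 with the 48 h PVG control array left out, and not called without the time as a block). The ectonucleotidases moved in opposite directions, with Enpp1 higher by 1.89 and Enpp3 lower by 1.64.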
